A study of Mus musculus with 24 samples.

Results

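The genes described here are 9 that mark the medium spiny neurons of the striatum: Drd1, Drd2, Adora2a, Ppp1r1b, Pde10a, Rgs9, Adcy5, Gpr6 and Syndig1l. They were chosen by name, out of 55487 genes counted in each library, because they were known from earlier results of these libraries to stand high in some hippocampus and cortex samples, so their levels and fold changes are given as a description. The libraries were polyA RNA-seq of 3 dissected tissues, hippocampus, cortex and cerebellum, taken from wild-type mice that had undergone either olfactory bulbectomy, in which both olfactory bulbs are taken out, or sham surgery. For hippocampus there were 4 bulbectomy and 5 sham libraries, for cortex 3 (bulbectomy 1, 2 and 4) and 5, and for cerebellum 2 and 5. All groups shared the wild-type genotype, no further allele or agent was named, and the labels used here give no age, interval after surgery or batch. They also do not say that the libraries of a group came from separate animals, so p-values measure only the spread between these libraries, which may be technical.

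Medium spiny neurons are the GABAergic projection neurons that make up most of the striatum, a structure lying beneath the cortex and beside the hippocampus in the forebrain. Those of the direct pathway carry the D1 dopamine receptor, which raises cyclic AMP through a stimulatory G protein and adenylyl cyclase 5, and those of the indirect pathway carry the D2 receptor, which lowers it, together with the adenosine receptor encoded by Adora2a and with Gpr6. DARPP-32, the product of Ppp1r1b, is a phosphoprotein on which dopamine and cyclic AMP signals converge, and Pde10a and Rgs9 end the cyclic nucleotide and G protein signals.

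Library depth ranged from 3255661 reads assigned to genes in hippocampus sham 1 to 138963332 in hippocampus sham 4, with 8145624 to 20230673 in the other libraries of the 3 tissues. Levels are given as CPM, read counts relative to the TMM-scaled total of the library, and each tissue was scaled on its own. In the shallowest library 3 reads correspond to 0.922 CPM, and the 9 genes had 68 (Gpr6) to 3529 (Ppp1r1b) reads there. The library labelled hippocampus sham 2 went against its label: the mean log2 CPM of 6 dentate granule cell genes was 1.29 there, within the 1.15 to 1.52 of the cortex libraries, against 3.28 to 3.89 in the other 8 hippocampus libraries. Sham 1, at 3.89, did not go against its label in this way. The edgeR comparison of the 9 genes in hippocampus is given with and without sham 1 and sham 2. These libraries were left out because the 9 genes stood highest in them. Fold changes and p-values without them therefore describe the effect of that choice and are no independent test of bulbectomy.

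Of the 9 genes, 6 matched the RefSeq promoter table (GRCm38.p6), and the sequences of both dopamine receptors and of Gpr6 are shown because these receptors separate the direct from the indirect pathway and yet stood high in the same libraries. The windows are read 5′ to 3′ on the strand of the gene and end at or upstream of the start given by RefSeq, which for Drd2 lies upstream of the GENCODE start printed further on: chr13:54055706-54055908 on the minus strand for Drd1 (203 bases, the stretch upstream of the GENCODE gene), chr9:49340153-49340402 on the plus strand for Drd2 (250 bases) and chr10:41072291-41072540 on the minus strand for Gpr6 (250 bases). Capitals mark matches to the cyclic AMP response element TGACGTCA or the GC box GGGCGG, searched on both strands.
Drd1: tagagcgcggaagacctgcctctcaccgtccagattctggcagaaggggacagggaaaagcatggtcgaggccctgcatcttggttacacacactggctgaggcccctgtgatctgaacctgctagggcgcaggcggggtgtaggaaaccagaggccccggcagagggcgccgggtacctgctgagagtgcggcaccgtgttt
Drd2: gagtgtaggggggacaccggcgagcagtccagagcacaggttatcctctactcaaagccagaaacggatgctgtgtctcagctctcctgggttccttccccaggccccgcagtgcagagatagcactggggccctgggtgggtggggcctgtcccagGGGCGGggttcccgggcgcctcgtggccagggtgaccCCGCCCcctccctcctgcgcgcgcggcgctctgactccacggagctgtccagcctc
Gpr6: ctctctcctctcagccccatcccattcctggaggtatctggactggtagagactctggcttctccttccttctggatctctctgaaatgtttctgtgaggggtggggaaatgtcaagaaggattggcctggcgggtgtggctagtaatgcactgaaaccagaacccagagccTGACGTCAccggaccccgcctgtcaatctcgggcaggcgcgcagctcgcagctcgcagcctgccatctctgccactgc
The cyclic AMP response element was found in the Gpr6 window, its first base 78 bases before the RefSeq start, and in 1.55% of the 32851 windows of 250 bases in the table. The GC box was found in 4 of the 6 windows (Drd2, Rgs9, Adcy5 and Pde10a), against 32.7% of all windows, and the TATA box TATAAA in 1 (Rgs9), against 12.4%. No 2 motifs overlapped in the printed windows, and a match describes the sequence only.

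The 9 genes were highest in 2 sham hippocampus libraries, sham 1 and sham 2, and the other hippocampus libraries of both treatments lay close together. Each of the 9 was higher in sham 1 and in sham 2 than in any of the other 7 hippocampus libraries, a pattern found in 788 of the 13985 genes tested (5.63%). For 61 genes (0.436%), the lower of the 2 libraries was more than 2 times the highest of the other 7, and these 61 included all 9. The smallest such gap was 2.78-fold (Adcy5) and the largest 14.0-fold (Rgs9). The genes and the 2 libraries were picked by these same levels, so the counts describe that choice. The mean log2 CPM of the 9 genes reached 7.18 (sham 1) and 7.62 (sham 2), whereas sham 3, 4 and 5 had 3.48, 3.31 and 3.79 and bulbectomy 1 to 4 had 4.07, 3.85, 4.04 and 4.11. Whether these 2 libraries held more medium spiny neurons or more RNA per such neuron cannot be told apart in bulk tissue.

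**Figure D1:**
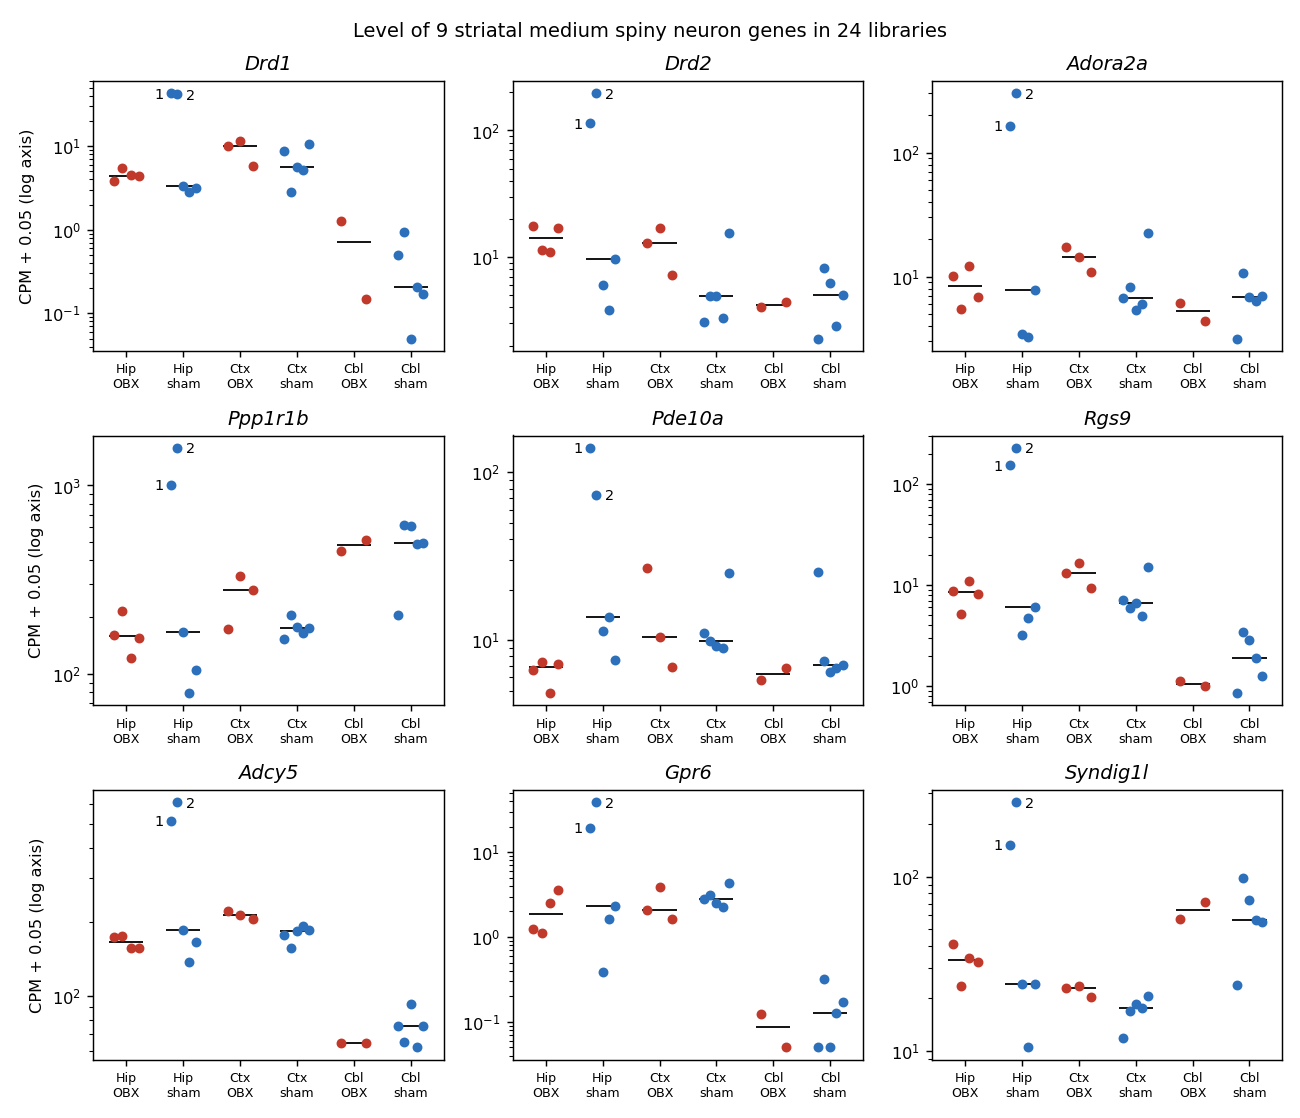
Level of each gene in all 24 libraries as CPM plus 0.05 on a log axis, by tissue (Hip, hippocampus; Ctx, cortex; Cbl, cerebellum) and treatment (red, bulbectomy, OBX; blue, sham); each point is 1 library and black lines are group medians. Points numbered 1 and 2 are hippocampus sham 1 and sham 2, which lie above the other 7 hippocampus libraries for all 9 genes.

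Among the receptors, Drd1 (ENSMUSG00000021478, chr13:54051183-54055705, minus strand, GRCm38), the D1 receptor of the direct pathway, stood at 3.82, 5.46, 4.41 and 4.39 CPM in hippocampus bulbectomy 1 to 4. In sham 1 to 5 it stood at 42.8, 41.8, 3.27, 2.77 and 3.08 CPM. Sham 1 and sham 2 were about equal, 11.2 and 10.9 times the median of the other 7 libraries, and the other 3 sham libraries lay below all 4 bulbectomy libraries. Drd2 (ENSMUSG00000032259, chr9:49340627-49408177, plus strand), the D2 receptor of the indirect pathway, stood at 17.7, 11.3, 10.9 and 17.0 CPM after bulbectomy. The sham libraries had 114, 197, 5.97, 3.79 and 9.64 CPM of Drd2. Here too the bulbectomy libraries lay between the 2 high sham libraries and the other 3, and sham 2 exceeded sham 1 by 1.72-fold.

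Adora2a (ENSMUSG00000020178, chr10:75316877-75334784, plus strand), the adenosine receptor that opposes D2 signalling in indirect-pathway neurons, stood at 10.1, 5.46, 12.2 and 6.77 CPM after bulbectomy and at 164, 300.5, 3.38, 3.23 and 7.80 CPM in sham 1 to 5. Its level in sham 2, 44.4 times the median of the other 7 libraries, was the largest excess of the 9 genes, and the bulbectomy range overlapped the 3 lower sham libraries. Gpr6 (ENSMUSG00000046922, chr10:41069977-41072285, minus strand), an orphan receptor of indirect-pathway neurons that couples to cyclic AMP production, was the least abundant, at 1.20, 1.07, 2.46 and 3.56 CPM after bulbectomy. In the sham libraries it stood at 19.4, 38.7, 0.338, 1.57 and 2.26 CPM. The value of sham 3 rested on 3 reads, and the bulbectomy range overlapped that of sham 3 to 5. The 3 indirect-pathway receptors were 1.72-fold (Drd2), 1.83-fold (Adora2a) and 2.0-fold (Gpr6) higher in sham 2 than in sham 1, whereas Drd1 of the direct pathway had a ratio of 0.978. Among peptide precursor genes the ratio was 1.37 for Penk (indirect), 1.26 for Tac1 (direct) and 1.03 for Pdyn (direct). Over the remaining members the ratio ran from 0.522 (Pde10a) to 1.75 (Syndig1l), so it is not read as a difference between the pathways. With 1 library on each side these ratios have no replicate check.

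Of the enzymes and regulators of cyclic AMP signalling, Adcy5 (ENSMUSG00000022840, chr16:35154877-35305738, plus strand), the adenylyl cyclase on which the dopamine receptors act, had the highest minimum over the 7 other hippocampus libraries. It stood at 174, 176, 157 and 156 CPM after bulbectomy and at 514, 611, 185, 137 and 166 CPM in sham 1 to 5. The excess in sham 1 and sham 2, 3.11 and 3.69 times the median of the others, was the smallest of the 9, and the bulbectomy libraries lay inside the range of sham 3 to 5. Ppp1r1b (ENSMUSG00000061718, chr11:98348404-98357796, plus strand), encoding DARPP-32, stood at 162, 217, 122 and 155 CPM after bulbectomy and at 1007, 1585, 167, 79.2 and 105.0 CPM in the sham libraries, with the bulbectomy values overlapping those of sham 3 to 5. Of its exon bases, 15.7% lie opposite 1700003D09Rik on the other strand. Since the strand setting of the counting is not given in the sources used here, reads of that gene could be included.

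Rgs9 (ENSMUSG00000020599, chr11:109225355-109298129, minus strand), which speeds the shut-off of G proteins beneath the D2 receptor, stood at 8.74, 5.10, 11 and 8.07 CPM after bulbectomy and at 154, 231, 3.15, 4.63 and 6.05 CPM in sham 1 to 5. Syndig1l (ENSMUSG00000071234, chr12:84677277-84698831, minus strand) encodes a membrane protein also known as capucin and enriched in striatum. It stood at 40.9, 23.6, 34.0 and 32.4 CPM after bulbectomy and at 152, 267, 24, 10.4 and 24 CPM in the sham libraries, and 5.75% of its exon bases lie opposite Gm48573. For both genes sham 1 and sham 2 were far above the rest, and the bulbectomy range reached above sham 3 to 5 but overlapped it.

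Pde10a (ENSMUSG00000023868, chr17:8525372-8986648, plus strand), the phosphodiesterase that degrades cyclic AMP and cyclic GMP in both classes of medium spiny neuron, went its own way. After bulbectomy it stood at 6.55, 7.36, 4.80 and 7.12 CPM, and in sham 1 to 5 at 140.0, 73.2, 11.4, 13.7 and 7.59 CPM. All 5 sham libraries lay above all 4 bulbectomy libraries. It was also the only one of the 9 with sham 1 above sham 2 by a wide margin (a sham 2 to sham 1 ratio of 0.522). Across the 7 other hippocampus libraries its log2 level ran against the mean of the rest of the 9 genes (Pearson r = -0.937). The log2 level of Drd2 ran with the mean of the rest of the 9, Drd2 left out (r = 0.937). Both values are a description over 7 libraries that share their scaling.

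**Figure D2:**
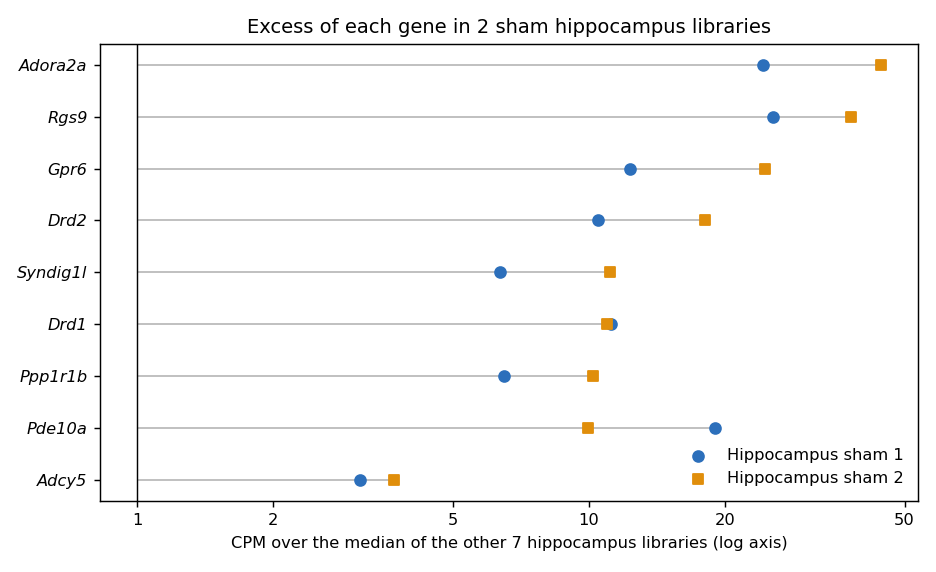
CPM of each gene in hippocampus sham 1 (blue circles) and sham 2 (orange squares) divided by the median of the other 7 hippocampus libraries, on a log axis; each point is 1 library. The excess runs from 3.11 and 3.69 (Adcy5) to 24.2 and 44.4 (Adora2a), and Pde10a is higher in sham 1 than in sham 2.

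Of 24 further medium spiny neuron genes measured, 18 were also higher in sham 1 and in sham 2 than in any of the other 7 hippocampus libraries, and 6 (Foxp1, Foxp2, Ebf1, Kcnip2, Drd3 and Eya1) were not. This pattern was found in 5.63% of all genes tested in hippocampus. Some of the 18 had few reads, such as Ido1 and Isl1 with 15 each in sham 1. Over the 24, sham 1 and sham 2 had a mean log2 CPM of 5.04 and 5.07, while the remaining 7 hippocampus libraries spanned 2.73 to 3.26. Penk, the enkephalin precursor of indirect-pathway neurons, stood at 618 and 847 CPM in sham 1 and sham 2 against 33.5 to 117 CPM in the others. Tac1, the substance P precursor of direct-pathway neurons, stood at 78.4 and 98.6 CPM against 2.37 to 7.65 CPM. Of 5 markers of cholinergic interneurons, the other striatal cell type followed, 4 had the same pattern and 1 did not, Gbx2, at 1.71 and 1.04 CPM in sham 1 and sham 2 and 0.494 to 5.02 CPM in the others. Lhx8, a transcription factor of these cells, was at 9.98 and 5.20 CPM in sham 1 and sham 2 and at 0 to 0.649 CPM in the others. Chat, which makes acetylcholine, was at 6.28 and 2.43 CPM against 0 to 1.07 CPM. The summed level of the 5 cholinergic markers was 32.5 and 23.5 CPM in sham 1 and sham 2, 1.24 to 2.56 CPM in sham 3 to 5 and 5.58 to 11.8 CPM after bulbectomy.

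Markers of hippocampal cells did not fall alike in the 2 libraries. In sham 1 the 6 dentate granule cell genes had a mean log2 CPM of 3.89 but did not move together: 4 were above and 2 below all 7 other libraries. Prox1, the transcription factor of granule cells, stood at 33.4 CPM and Dsp at 21.4 CPM, whereas C1ql2 stood at 40.2 CPM, with 58.3 to 192 CPM in the 7, and Lct at 17.4 CPM, with 19.6 to 32.1 CPM. Their summed level in sham 1, 122 CPM, was below the 129.5 to 254 CPM of the 7. In sham 2, Prox1 stood at 3.35 CPM and Dsp at 0.462 CPM, and the remaining 7 libraries had 11.5 to 24.9 CPM and 3.56 to 16.3 CPM. The 6 CA pyramidal cell genes had a mean log2 CPM of 3.97 (sham 1) and 3.30 (sham 2), below the remaining 7 libraries (4.75 to 5.31); cortex spanned 3.33 to 3.68. The 10 cortical layer genes stood at 4.21 and 4.62, while the remaining hippocampus libraries spanned 4.06 to 4.53 and cortex 4.94 to 5.67. Thus the means of dentate and CA markers in sham 2 were within and below their cortex range, and in sham 1 neither was. The part that dissection, depth or any other property of these 2 libraries had in this was not tested.

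**Figure D3:**
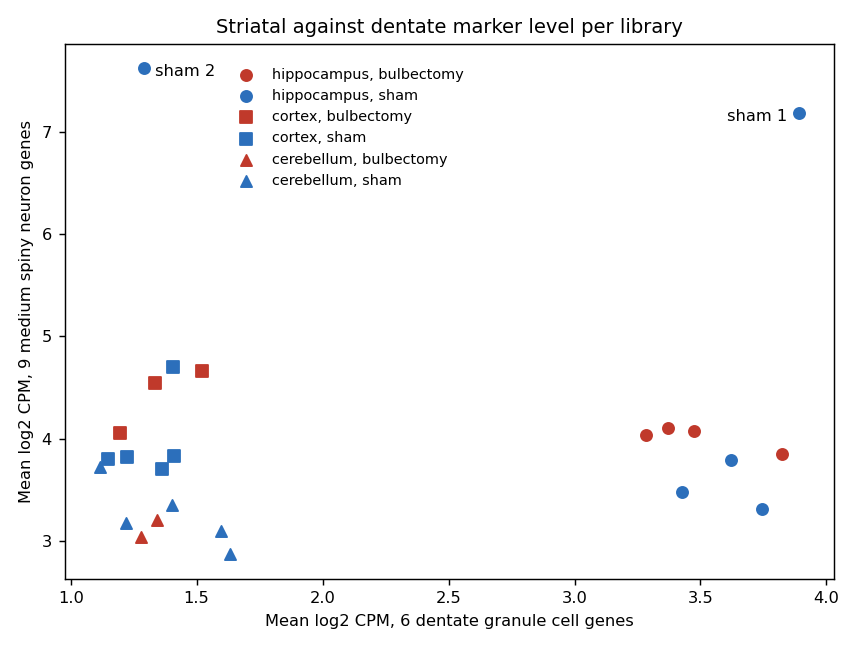
Mean log2 CPM of the 9 medium spiny neuron genes (vertical axis) against that of 6 dentate granule cell genes (horizontal axis) in each of 24 libraries; shapes give the tissue and colours the treatment. Sham 1 lies at 3.89 and 7.18 and sham 2 at 1.29 and 7.62, both above every other library on the vertical axis.

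The genes most like the 9 over the 17 hippocampus and cortex libraries, by Pearson r between log2 CPM and the mean log2 CPM of the 9 among 13804 genes, were Tac1 (0.974), Tmem158 (0.942), Penk (0.930), Rxrg (0.926), Kazn (0.922), Pbx3 (0.920), Scn4b (0.909), Rasd2 (0.907), Syt6 (0.905) and Pde1b (0.894). Without sham 1 and sham 2 the same coefficients over 15 libraries ran from 0.110 (Pde1b) to 0.807 (Tac1). Of these 10, 6 were on the list of further medium spiny neuron genes and 4 (Tmem158, Kazn, Pbx3 and Syt6) on none of the lists used. Tmem158, for which no striatal role was assumed, stood at 105.0 and 104 CPM in sham 1 and sham 2 and at 30.5 to 41.1 CPM in the other 7 hippocampus libraries.

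What the 2 libraries did to the comparison of bulbectomy with sham was tested with edgeR's quasi-likelihood test over all 13985 hippocampus genes. With all 9 libraries, all 9 genes had a lower fitted level after bulbectomy and none was called at an adjusted p under 0.05, where 1.55% of all genes were called and 48.4% had a fitted value below 0. At an unadjusted p under 0.05 there was 1 of the 9 (Pde10a), where 20% of all genes passed. The log2 fold changes ran from -0.96 ± 0.46 (SE, edgeR adjusted p = 0.282) for Adcy5 to -3.46 ± 1.59 (0.280) for Adora2a, with a median of -2.20 beside 0.018 over all genes tested. Drd1 had -2.0 ± 1.05 (0.327) and Drd2 -2.20 ± 1.28 (0.377). Rgs9 at -3.26 ± 1.51 (0.281), Gpr6 at -2.55 ± 1.34 (0.329), Ppp1r1b at -1.84 ± 0.99 (0.340) and Syndig1l at -1.54 ± 0.99 (0.421) were not called either. For 8 of the 9 the groups overlapped, and for 1, Pde10a, they did not, where 4.86% of all genes had every bulbectomy library below every sham library.

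Leaving out sham 1 and sham 2 turned 8 of the 9 fold changes from below to above 0, where 52.9% of all genes were above 0, and left Pde10a below. Because these sham libraries were chosen for high levels of the same genes, a rise of the fold changes without them was fixed by the choice. The median was then 0.58, beside 0.029 over all genes, and again none of the 9 was called by edgeR, where 2.48% of all genes were. At an unadjusted p under 0.05, 5 of the 9 passed (Drd2, Pde10a, Rgs9, Syndig1l and Adora2a), where 18.6% of all genes did. Drd2 came nearest, at 1.17 ± 0.32 (edgeR adjusted p = 0.0678), and with Drd1 at 0.58 ± 0.31 (0.340) it was 1 of 2 genes with every bulbectomy library above every remaining sham library (9.19% of all genes), while Pde10a had every one below (8.75%). Adora2a stood at 0.87 ± 0.37 (0.226), Rgs9 at 0.83 ± 0.32 (0.173), Syndig1l at 0.77 ± 0.29 (0.180), Gpr6 at 0.54 ± 0.58 (0.660), Ppp1r1b at 0.49 ± 0.26 (0.338) and Adcy5 at 0.03 ± 0.16 (0.948). With sham 4, the deepest library, left out as well, 7 of the 9 were above 0 (52.7% of all genes) and the median was 0.51.

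Removing only 1 of the 2 high libraries left all 9 fold changes below 0, where 54.3% of all genes were below 0 without sham 1 and 46.9% without sham 2. Without sham 1 they ran from -3.22 ± 1.74 (Adora2a, edgeR adjusted p = 0.414) to -0.77 ± 0.48 (Adcy5, 0.475), and without sham 2 from -2.68 ± 1.09 (Pde10a, 0.213) to -0.59 ± 0.38 (Adcy5, 0.381). Pde10a was the 1 gene whose lower level after bulbectomy did not depend on them in direction: edgeR gave -2.89 ± 1.0 (adjusted p = 0.171) with all libraries and -0.76 ± 0.27 (0.140) without both. It was called lower by DESeq2 (-2.95, adjusted p = 0.0197; 6.83% of all genes called) and in a fit of all 24 libraries (-2.92, edgeR adjusted p = 0.0456; 1.16% called), both with sham 1 and sham 2 included and not run without them.

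**Figure D4:**
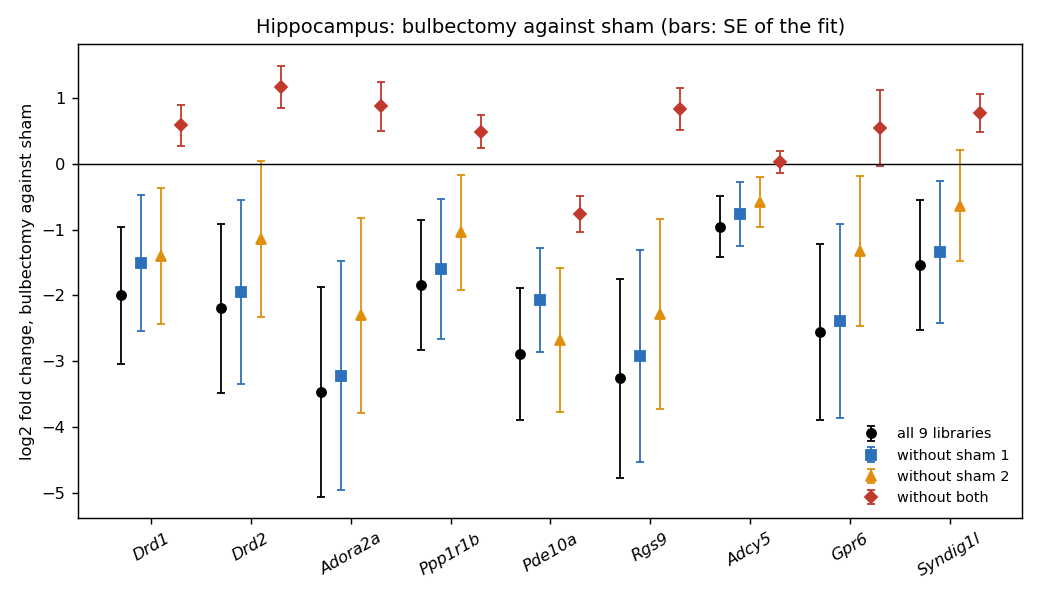
Fitted log2 fold change of each gene in hippocampus, bulbectomy against sham, with all 9 libraries (black), without sham 1 (blue), without sham 2 (orange) and without both (red); bars are the SE of the edgeR fit. All 9 are below 0 until both libraries are removed, when 8 are above 0 and Pde10a stays below.

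Among the other lists, of 20 further medium spiny neuron genes tested with all libraries 3 were above 0, 17 below (48.4% of all genes) and none called by edgeR (3 at an unadjusted p under 0.05, as were 20% of all genes), with a median of -0.99. Without sham 1 and sham 2, 12 were above 0, a share near the 52.9% of all genes. The median was then 0.11. The smallest p with all libraries was that of Arpp21, a calcium- and cyclic AMP-regulated phosphoprotein gene, at -1.55 ± 0.62 (edgeR adjusted p = 0.211), and -0.25 ± 0.18 (0.482) without the 2 libraries. The 1 called without the 2 libraries was Foxp1, a transcription factor of medium spiny neurons that cortex also expresses, which rose by 0.84 ± 0.19 (0.0351), from 31.2, 32.3 and 27.6 CPM in sham 3 to 5 to 44.3, 44.5, 64.2 and 64.6 CPM after bulbectomy; sham 1 and sham 2 had 56.5 and 93.2 CPM. Of 17 signalling partners of dopamine and cyclic AMP, 8 were above 0 and 9 below with all libraries and 10 and 7 without both, with none called by edgeR in either and 7 and 6 at an unadjusted p under 0.05 (20% and 18.6% of all genes). Pde2a, another phosphodiesterase, had -1.72 ± 0.51 (edgeR adjusted p = 0.0971) with all libraries and -1.16 ± 0.51 (0.238) without both. Prkaca, the catalytic subunit of protein kinase A, had edgeR values of 0.43 ± 0.14 (0.115) and 0.48 ± 0.16 (0.121).

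Slc18a3, the vesicular acetylcholine transporter, also depended on the choice of libraries. It stood at 6.55, 3.80, 3.50 and 3.32 CPM after bulbectomy and at 13.1, 12.5, 0.113, 0.494 and 0.205 CPM in sham 1 to 5. Its fold change was -0.17 ± 1.26 (edgeR adjusted p = 0.953) with all libraries and 3.60 ± 0.52 (0.00294) without sham 1 and sham 2. Th, the rate-limiting enzyme of dopamine synthesis, likewise went from 0.98 ± 0.68 (0.433) to 2.64 ± 0.44 (0.00743). The medial habenula, a neighbour of the hippocampus, also holds cholinergic neurons, and its markers were followed beside these genes. Gpr151, Tac2, Chrnb4 and Gng8 were called with all libraries (4 of 6 tested, where 1.55% of all genes were called). Without both libraries 5 of 7 were called, where 2.48% of all genes were. The summed level of all 7 habenula markers was 46.7 to 75.1 CPM in the bulbectomy and 14.4 to 26.5 CPM in the sham libraries, sham 1 and sham 2 included. The part of habenular RNA in the values of Slc18a3 and Th was not tested.

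Over the whole hippocampus table, 217 genes were called with all libraries (77 higher, 140 lower) and 348 (118 and 230) without sham 1 and sham 2. The 2 sets shared 175 genes, 80.6% of the first and 50.3% of the second, all with the same sign. The 61 genes more than 2 times higher in sham 1 and sham 2 than in every other hippocampus library had a median log2 fold change of -1.19 with all libraries. The 60 of them tested without the 2 libraries had a median of 0.17. These genes were selected by their levels in the 2 libraries, so values below 0 with them and a rise without them were fixed in advance. The common biological coefficient of variation, edgeR's measure of spread between libraries, was 0.297 with and 0.269 without them.

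In cortex the 9 genes varied less, and the high libraries fell on both sides of the comparison. The mean log2 CPM of the 9 was 4.55, 4.66 and 4.06 in bulbectomy 1, 2 and 4 and 3.82, 3.81, 3.83, 3.70 and 4.70 in sham 1 to 5, so that bulbectomy 1, bulbectomy 2 and sham 5 stood above the rest. For 5 of the 9 genes (Drd1, Drd2, Adora2a, Rgs9 and Syndig1l) these 3 libraries were above the other 5, a pattern found in 5.36% of all cortex genes. The 3 libraries were picked by the mean of the same genes, so this count describes that choice. The lowest of the 3 exceeded the highest of the other 5 by only 1.01-fold (Syndig1l) to 1.78-fold (Drd2). None of the 9 was above 2 times every other library, unlike in hippocampus. Drd2 stood at 12.8, 17.0 and 7.22 CPM after bulbectomy and at 3.0, 4.89, 4.87, 3.27 and 15.4 CPM in sham 1 to 5. Adora2a stood at 17.4, 14.3 and 10.9 CPM and at 6.72, 8.18, 5.36, 5.98 and 22.5 CPM. The level of sham 5 was within or above the bulbectomy range for both, and without it the groups would not overlap.

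Rgs9 showed the same arrangement, at 13.0, 16.4 and 9.27 CPM after bulbectomy and 7.03, 5.90, 6.58, 4.87 and 15.0 CPM in the sham libraries. Pde10a was high in bulbectomy 1 and sham 5 but not in bulbectomy 2, at 26.9, 10.5 and 6.83 CPM after bulbectomy and 11.1, 9.83, 9.14, 8.90 and 25.2 CPM in the sham libraries. Ppp1r1b did not follow these 3 libraries: it stood at 173, 329 and 279 CPM after bulbectomy and at 154, 205, 178, 165 and 175 CPM in sham 1 to 5, with bulbectomy 1 inside the sham range. Adcy5 stood at 221, 214 and 205 CPM after bulbectomy and at 176, 156, 183, 193 and 185 CPM in the sham libraries, and was the 1 gene of the 9 whose groups did not overlap (2.2% of all genes with bulbectomy higher). Drd1 ranged from 2.79 to 11.5 CPM, Gpr6 from 1.56 to 4.33 CPM and Syndig1l from 11.8 to 23.5 CPM over the 8 cortex libraries.

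Bulbectomy against sham in cortex gave 8 fold changes above 0, where 50.8% of all genes were, and 1 below (Gpr6), with a median of 0.48 beside 0.0053 over all genes, and none of the 9 was called by edgeR, where 0.0202% of all genes were, nor by DESeq2. At an unadjusted p under 0.05 there was 1 of the 9 (Ppp1r1b), where 5.91% of all genes passed. The largest were Drd2 at 0.97 ± 0.48 (edgeR adjusted p = 0.844), Rgs9 at 0.71 ± 0.35 (0.844) and Ppp1r1b at 0.57 ± 0.20 (0.711). Without sham 5 these became 1.57 ± 0.32 (0.395) for Drd2, 1.05 ± 0.26 (0.557) for Rgs9 and 1.07 ± 0.25 (0.528) for Adora2a, which had 0.54 ± 0.43 (0.882) with it. The groups of 5 of the 9 then did not overlap (3% of all genes with bulbectomy higher). Sham 5 had the highest mean of the 9 genes in the sham group. For genes high in it, larger fold changes and less overlap without it were therefore fixed by that choice and are no test of bulbectomy. Without bulbectomy 1, Ppp1r1b was called, at 0.79 (0.0230), in a fit that called 573 genes (3.79%), and Pde10a turned to -0.57. Among the other lists in cortex, 15 of 21 further medium spiny neuron genes were above 0 and 6 below, with none called by edgeR and 6 at an unadjusted p under 0.05: Penk at 0.89 ± 0.23 (0.501) and Six3, a forebrain transcription factor, at 1.61 ± 0.48 (0.682) had the smallest p. The 17 signalling partners split into 9 above and 8 below 0, with none called by edgeR and 2 at an unadjusted p under 0.05.

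**Figure D5:**
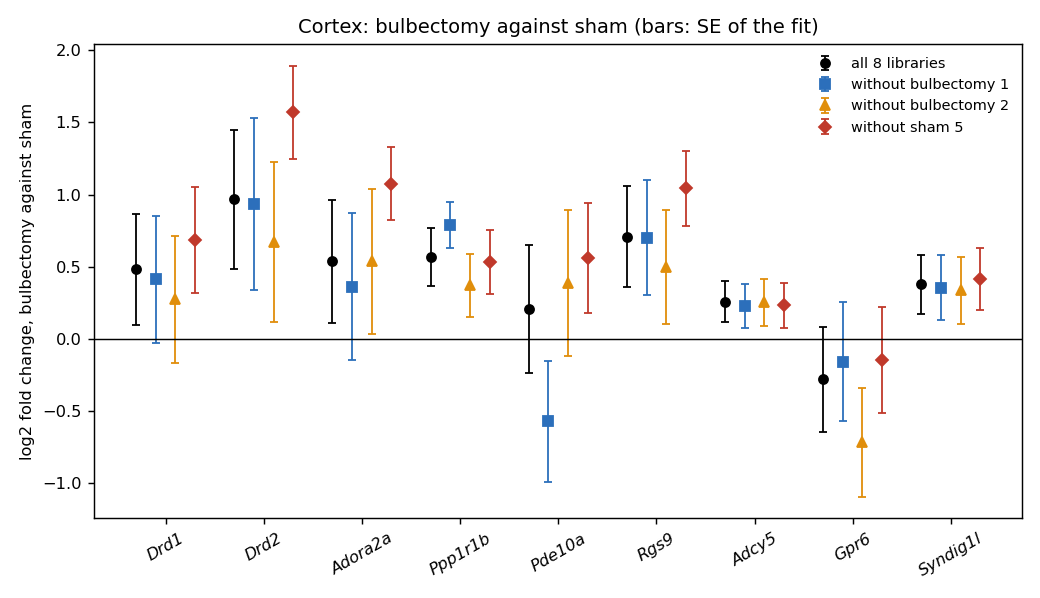
Fitted log2 fold change of each gene in cortex, bulbectomy against sham, with all 8 libraries (black), without bulbectomy 1 (blue), without bulbectomy 2 (orange) and without sham 5 (red); bars are the SE of the edgeR fit. Drd2, Adora2a and Rgs9 are larger without sham 5, the sham library highest in each of them, and Pde10a falls to -0.57 without bulbectomy 1.

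Cerebellum, which holds no striatal tissue by its anatomy, gave the background of the 9 genes. Drd1 had 0 to 16 reads per library and Gpr6 0 to 3, at most 1.21 and 0.268 CPM. Where Gpr6 had 0 reads, in bulbectomy 2, sham 1 and sham 3, counting error alone allows up to 0.148, 0.288 and 0.179 CPM. Rgs9 ranged from 0.800 to 3.39 CPM and Drd2 from 2.22 to 8.13 CPM. Ppp1r1b and Syndig1l were not low there: Ppp1r1b ranged from 205 to 620 CPM and Syndig1l from 23.7 to 97.7 CPM, and 6 of 7 (Ppp1r1b) or 7 of 7 (Syndig1l) cerebellum libraries were above all 8 cortex libraries, with the tissues scaled separately. Ppp1r1b and Syndig1l were thus measured at a level in tissue outside the striatum that Drd1, Rgs9 and Gpr6 did not reach.

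Of the 8 genes tested in cerebellum (Gpr6 did not pass the filter on low counts), 2 fold changes were above 0 and 6 below (57.2% of all genes below), the median was -0.21 beside -0.064 over all genes, and none was called by edgeR, where 0.0131% of all genes were, or by DESeq2. At an unadjusted p under 0.05 there were 0 of the 8, where 2.97% of all genes passed. The largest was Drd1 at 1.03 ± 1.26 (edgeR adjusted p = 1.0), which rested on 16 reads in bulbectomy 1 and 2 in bulbectomy 2. Sham 1 stood apart: it had the lowest cerebellar level of Drd2, Adora2a, Ppp1r1b, Rgs9 and Syndig1l, and the highest of Pde10a, 25.5 CPM against 5.75 to 7.50 CPM in the other 6.

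Levels of the 9 genes were compared with each other per kilobase of exon. In cortex sham libraries the mean level was 59.9 ± 6.53 CPM per kb (SD, n = 5) for Ppp1r1b and 24.9 ± 1.92 for Adcy5, followed by 5.54 ± 1.06 for Syndig1l. Adora2a at 3.19 ± 2.36, Drd2 at 2.46 ± 2.02, Drd1 at 1.79 ± 0.840, Gpr6 at 1.68 ± 0.458, Rgs9 at 1.23 ± 0.639 and Pde10a at 0.998 ± 0.542 CPM per kb did not differ from their neighbours in that order beyond their spread. In hippocampus sham 2 the order was Ppp1r1b (541 CPM per kb), Adora2a (98.1), Syndig1l (86.8), Adcy5 (85.0), Drd2 (77.2), Rgs9 (36.1), Gpr6 (21.7), Drd1 (11.5) and Pde10a (5.69). Adora2a there stood above Adcy5 and Syndig1l, and Drd1 and Pde10a at the low end. In cerebellum sham libraries Ppp1r1b led at 165 ± 57 CPM per kb (SD, n = 5), with Syndig1l at 19.9 ± 8.84 and Adcy5 at 10.3 ± 1.70, and Drd1 and Gpr6 were lowest, at 0.0889 ± 0.0988 and 0.0521 ± 0.0619.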

How the data were processed

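PolyA RNA-seq was made from hippocampus, cortex and cerebellum. The deposited files hold raw counts per Ensembl gene, made by the authors with Trimmomatic, STAR and featureCounts on mm10, per the submitters' processing notes; their versions and the strand setting are not given in these sources. The 12 assignment totals per file stayed out of library sizes and tests (reads in no gene made up 2.62% to 9.22%). Groups came from the labels. Within each tissue, genes passing filterByExpr were TMM-scaled and tested by edgeR's quasi-likelihood test (edgeR 4.0.16, R 4.3.3), two-sided, with Benjamini-Hochberg adjustment over all genes tested and calls at an adjusted p under 0.05. The SE of an edgeR fold change is its absolute log2 value divided by the square root of the F statistic of that test. Means of log2 levels used a pseudocount of 0.5 CPM. Exon lengths and positions came from GENCODE M21. The code was tested on simulated data. Alternatives were DESeq2 1.42.0, RLE and upper-quartile scaling, other filters, a replicate block, 1 fit of all 24 libraries and each library left out. The members and lists were chosen with earlier results of these data known. Named were all 9 genes and the 10 genes most like the 9. For the lists the rule was to take the called genes or the 2 of smallest p. Fold changes of many genes taken by this rule are left out, such as those of the dentate, CA, choroid plexus, cerebellar and oligodendrocyte lists. Further genes were named with their levels, ratios or reads after their values were seen. They include Penk, Tac1, Pdyn, Ido1, Isl1, Lhx8, Chat, Gbx2, Prox1, Dsp, C1ql2 and Lct, and the 6 lacking the pattern.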

Additional observations from a re-analysis of the deposited data

Results flagged for a closer look

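Of 36 groups of member values with 4 or 5 libraries, 5 held 1 library far from the others (the gap to the nearest library over the whole range exceeded Dixon's 95% critical value of 0.710 for 5 samples), and chance alone gives such a value in about 1 in 20 groups. In cortex sham 5, Drd2 stood at 15.4 CPM with the next sham library at 4.89 CPM, Adora2a at 22.5 CPM with the next at 8.18 CPM, Pde10a at 25.2 CPM with the next at 11.1 CPM and Rgs9 at 15.0 CPM with the next at 7.03 CPM. These 4 values come from 1 library and are not independent of each other. In cerebellum sham 1, Pde10a stood at 25.5 CPM with the next sham library at 7.50 CPM. The 2 high hippocampus sham libraries were not picked out this way for any of the 9 genes, but the check could not decide on them. It takes the gap to the nearest library, so 2 high libraries in the same group hide each other.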

How the results depend on the processing

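In hippocampus, all 9 genes kept a lower level after bulbectomy under DESeq2, RLE and upper-quartile scaling, no filter, a filter of 1 CPM, the replicate block, 1 fit of all 24 libraries and each library left out (median -2.57 to -1.32). None was called there except Pde10a, by DESeq2 and in the fit of 24. The genes called were 217, against 955 with DESeq2, 76 with the replicate block, 30 to 477 with 1 library left out and 348 without sham 1 and sham 2. That last choice reversed the median (0.58) and Drd1 (0.58), Drd2 (1.17), Adora2a (0.87), Ppp1r1b (0.49), Rgs9 (0.83), Adcy5 (0.029), Gpr6 (0.54) and Syndig1l (0.77). Leaving out sham 4 too, a choice made after seeing the data, gave 168 calls and 0.51 (median), 0.51 (Drd1), 0.87 (Drd2), 0.62 (Adora2a), 0.27 (Ppp1r1b), 0.83 (Rgs9), 0.66 (Gpr6) and 0.45 (Syndig1l). In cortex the calls were 3, against 39 with DESeq2, 7 with RLE scaling, 24 with no filter, 13 with the replicate block, 5 in the fit of 24, 1 to 573 with 1 library left out, and 1334 without bulbectomy 1, bulbectomy 2 and sham 5, added after seeing the data, where the lone bulbectomy library is assumed to vary like the shams. There Ppp1r1b was called (0.66, edgeR adjusted p = 0.0436) and Pde10a was -0.51; with 1 library left out Pde10a spanned -0.57 (without bulbectomy 1) to 0.56. The cortex median was 0.35 to 0.56 with 1 library left out. In cerebellum the calls were 2, against 12 with DESeq2, 0 with the replicate block and 0 to 36 with 1 library left out (median -0.41 to -0.11). Values near 0 changed sign there: Ppp1r1b was 0.00033 with upper-quartile scaling and 0.43 with the replicate block, Drd1 was -0.56 with the block, and with 1 library left out Drd1 spanned -1.55 to 1.95, Drd2 -0.41 to 0.029, Ppp1r1b -0.21 to 0.090 and Syndig1l -0.14 to 0.29. The cause of these changes was not tested. Same-numbered bulbectomy and sham libraries correlated at -0.352 to 0.031 in hippocampus, -0.227 to 0.225 in cortex and 0.337 to 0.430 in cerebellum. In hippocampus and cortex no bulbectomy library correlated best with the sham library of its own number, whereas in cerebellum both did. The correlations are of deviations from group means, and those of only 2 bulbectomy libraries mirror each other, so the cerebellum values are not independent. The labels used here name no pairing, and the numbers were not taken to pair samples. The hippocampus median with the replicate block was -1.39, and none of the 9 genes was called with it. Depth limits Gpr6 and Drd1 most, which had at most 3 and 16 reads in a cerebellum library.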

Other observations

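Pde10a followed a pattern of its own across libraries, and some genes of the signalling and GABA synthesis lists, picked after their values were seen, were high in the same libraries. In cerebellum sham 1, where Pde10a was highest, Ppp3cb, a calcineurin subunit, stood at 278 CPM against 54.9 to 87.3 CPM in the other 6 libraries, Gnal, the stimulatory G protein of striatal and olfactory neurons, at 135 CPM against 29.7 to 56.5 CPM, and Gad2, which makes GABA, at 111 CPM against 10.4 to 18.5 CPM. In cortex bulbectomy 1 and sham 5, the 2 libraries highest in Pde10a, Gad2 stood at 48.3 and 46.2 CPM against 9.27 to 32.9 CPM in the other 6. Between the 2 high hippocampus libraries, Gnal was at 158 CPM in sham 1 and 80.0 CPM in sham 2, the order of Pde10a and the reverse of Adora2a and Rgs9. Pde10a had the longest exon sum of the 9 genes, 12.8 kb. Whether these genes share a property of the libraries was not tested.

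Of the GABA synthesis and ventral forebrain genes, 8 of 8 were lower after bulbectomy with all hippocampus libraries (48.4% of all genes were). None was called, where 1.55% of all genes were: Gad2 at -1.35 ± 0.37 (edgeR adjusted p = 0.0845) and Gad1 at -0.78 ± 0.26 (0.126). In 5 of the 8, sham 1 and sham 2 were both above the other 7 hippocampus libraries (5.63% of all genes). Without sham 1 and sham 2, 3 were higher and 5 lower (47.1% of all genes lower), with Gad2 at -1.0 ± 0.29 (0.0936). In the lists of other regions with all hippocampus libraries, Rora of the thalamus list rose by 1.71 ± 0.29 (0.0137), and Rasgrf2 of the cortical layer list fell by 0.90 ± 0.17 (0.0237); without both libraries Rora was at 1.60 ± 0.38 (0.0657) and Rasgrf2 fell by 0.82 ± 0.18 (0.0272). None of the dentate, CA, choroid plexus, cerebellar or oligodendrocyte genes was called in either fit.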
